A study of Arabidopsis thaliana with 64 samples.

Results

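FE is a locus of the photoperiod pathway of Arabidopsis thaliana, and the FE line was compared with wild type on 4 two-channel arrays. These arrays, taken as all samples whose titles start with FE, are 4 of 64 in the series. Each array set total RNA of the FE line against total RNA of wild type plants in the other channel. There were 2 arrays from plants grown under 8 h of light a day (short days) and 2 from plants grown under 16 h (long days), all from plants 12 days old. In each day length 1 array had the dyes swapped and 1 did not, and the 2 arrays carried biological replicate numbers 1 and 2. The sources used here do not give the tissue, the hour of harvest or the number of plants per RNA. For the FE arrays they give neither the allele of FE nor the accession of the wild type. They also do not say whether a replicate was a separate growth of plants, so the p-values measure only the spread between arrays, which may be technical. That spread is estimated over all lines of the series and not from the FE arrays alone. The source label of the 8 h arrays spells the line Fe.

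In Arabidopsis, long days are read in the leaf, where CO protein in the phloem companion cells switches on FT, and FT protein then moves through the sieve elements to the shoot tip, where it acts with FD and SOC1 to start flowering. FE, also known as APL, is a MYB-type transcription factor of the phloem that promotes transcription of FT and of FTIP1, a protein needed for export of FT from the companion cells. Plants with reduced FE function flower late in long days, and complete loss of APL disturbs phloem identity and stops seedling growth.

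Each probe has a deposited ratio of the channels, scaled so that the median probe of an array is at 1, and it is given here as log2. The labels leave the direction of this ratio unstated. FE over wild type is the likely one, since the descriptions set FE against wild type in that order and channel 1 holds FE where the dyes are unswapped, and a log2 ratio above 0 is read as higher in FE. If the ratio ran the other way, rises below would be falls, falls would be rises, and the higher and lower counts would change places. A probe is called, or said to have risen or fallen, where limma gave an adjusted p under 0.05 in a fit to all arrays of the series. The errors printed after ± are limma's moderated standard errors.

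The spread of ratios on the FE arrays was near that of the series, and the arrays agreed weakly with each other. The SD of the log2 ratios was 0.206 to 0.267 on the FE arrays, against a median of 0.226 over all 64 arrays, and between 36 and 57 probes lay beyond 2-fold. Over the 13824 probes, which share dyes and normalization, the log2 ratios of pairs of FE arrays correlated at r = -0.01 to 0.23. With the mean of the arrays without FE of the same dye orientation subtracted, r was -0.09 to 0.15. The targeted locus itself could not check the label, because APL has no named probe here. FT, FTIP1, CO, GI, FD and SOC1 have none either. Of the flowering time list only FPA, LD and SNZ were measured, at mean log2 ratios of -0.01, -0.05 and -0.06, and none was called. OPS, a protein of young phloem cells and the only measured member of the phloem list of 23 genes, had a mean log2 ratio of 0.17 and was not called.

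Over both day lengths 35 of 13824 probes were called, which is 0.253% of those tested, 24 of them higher in FE and 11 lower. Of these, 28 had the sign of their mean on all 4 arrays. The platform annotation names 18 of the called probes, which belong to 16 genes, with 9 probes higher and 9 lower. Without a correction for multiple tests, 1198 probes had a p under 0.05. By size the largest of the called means was a fall of ALDH10A8, and the largest rises with a name were those of AMY1, an alpha-amylase, and FDH, formate dehydrogenase. With each of the 4 FE arrays left out in turn, 3 of the 18 named probes were called every time and 4 in no case (FDH, AT5G22460, AT2G43590 and AT1G72910). When the spread was taken from the FE arrays alone, 16 of the 35 probes were still called, among them 6 of the 18 named ones: the 3 of ALDH10A8, AMY1, AT2G32870 and AT2G43590. That fit holds 4 arrays with a mean per day length and a dye term. Each probe's own spread is therefore poorly estimated there and is moderated over all probes. Without the dye term 5 of the 18 lost their call (AT1G67750, AT5G22460, AT3G09490, AT4G15390 and AT1G72910).

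ALDH10A8 (AT1G74920) encodes an aldehyde dehydrogenase of the betaine aldehyde dehydrogenase family, which oxidises aminoaldehydes formed in the breakdown of polyamines. Its first probe had log2 ratios of -1.28 and -1.57 in 8 h days (replicates 1 and 2) and of -2.0 and -1.36 in 16 h days (replicates 1 and 2). The mean was -1.55 ± 0.14, a level 2.93-fold lower than in wild type (limma, adjusted p = 1.6e-09). All 4 values lay far below 0, and the array of 16 h replicate 1 was the lowest.

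The second ALDH10A8 probe gave -1.12 and -1.56 in 8 h days and -1.93 and -1.0 in 16 h days, with a mean of -1.40 ± 0.11 (limma, adjusted p = 2.3e-10). The third gave -0.56 and -0.73 in 8 h days and -1.19 and -0.70 in 16 h days, with a mean of -0.79 ± 0.12 (limma, adjusted p = 0.00077). The 3 probes were thus lower in FE on every array, and the third probe showed a smaller difference than the others. In each day length the swapped array was the more negative on all 3 probes (8 h replicate 2 and 16 h replicate 1). On each probe 16 h replicate 1 was the lowest. The first and second probes were called with any 1 of the 4 arrays left out. The third was not called without 8 h replicate 2 or without 16 h replicate 1, at an adjusted p of up to 0.064.

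AT2G32870 encodes a protein with a TRAF-like (MATH) domain. Its log2 ratios were -0.75 and -0.79 in 8 h days and -1.19 and -0.73 in 16 h days, and its mean was -0.86 ± 0.12 (limma, adjusted p = 4.0e-05). As for ALDH10A8, all 4 arrays were below 0 and 16 h replicate 1 was the lowest. The swapped array was again the more negative in each day length, though by little in 8 h days. The call held with any 1 array left out (adjusted p up to 0.0077).

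AT2G48090, for which no role is stated here, gave -0.31 and -0.38 in 8 h days and -0.51 and -0.31 in 16 h days, a mean of -0.38 ± 0.07 (limma, adjusted p = 0.0052). The fall was small and of like size across the arrays, with the swapped array the more negative in each day length. It was still called without 16 h replicate 2, and not without any 1 of the other 3 arrays (adjusted p up to 0.12).

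AMY1 (alpha-amylase-like) belongs to the enzymes that cut the inner bonds of starch-like glucans. Its first probe had log2 ratios of 1.27 and 1.3 in 8 h days and of 1.21 and 0.27 in 16 h days. The mean was 1.01 ± 0.21, or 2.02-fold (limma, adjusted p = 0.019). Replicate 2 of the 16 h arrays stood well below the other 3 values. The call was lost without 8 h replicate 1 (adjusted p = 0.26), and also without 8 h replicate 2 or without 16 h replicate 1. The second AMY1 probe was positive on all arrays, at 0.58 and 0.46 in 8 h days and 0.64 and 0.24 in 16 h days, and its mean of 0.48 ± 0.13 was not called (limma, adjusted p = 0.11).

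FDH encodes the mitochondrial enzyme that oxidises formate to carbon dioxide. It gave 0.74 and 0.67 in 8 h days and 0.36 and 0.61 in 16 h days, and a mean of 0.59 ± 0.12 (limma, adjusted p = 0.012). The 4 values were of like size. Even so, the adjusted p rose to between 0.053 and 0.19 when any 1 array was left out.

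IVD, the isovaleryl-CoA dehydrogenase of mitochondrial leucine breakdown, gave 0.14 and 0.24 in 8 h days and 0.54 and 0.35 in 16 h days on its first probe. The mean of this probe was 0.32 ± 0.07 (limma, adjusted p = 0.025). Its second probe went the other way, with a mean of -0.13 (limma, adjusted p = 0.77), so the probes of IVD disagree.

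The remaining rises were smaller. AT1G72910, a protein with a TIR domain of the kind found in plant immune receptors, had log2 ratios between 0.49 and 0.68 on the 4 arrays and a mean of 0.59 ± 0.14 (limma, adjusted p = 0.047). AT1G72900, a TIR gene of the same family, had means of 0.35 and -0.04 on its 2 probes and was not called. AT3G19010, a 2-oxoglutarate and iron dependent oxygenase, rose on 1 probe by a mean of 0.38 ± 0.07 (limma, adjusted p = 0.0069), and its other 2 probes had larger means of 0.64 and 0.59 that were not called.

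AT4G39780, a transcription factor of the AP2/ERF family, rose on 1 of its 7 probes, with a mean of 0.49 ± 0.09 (limma, adjusted p = 0.0046). The other 6 probes ranged from -0.26 to 0.17, and the average over all 7 was not called (limma, adjusted p = 0.95). AT5G60820, a RING-type protein, rose on 1 of 2 probes, at 0.41 ± 0.08 (limma, adjusted p = 0.011), while the other stood at 0.01. AT5G22460, an alpha/beta hydrolase, had a mean of 0.36 ± 0.08 (limma, adjusted p = 0.028). AT3G09490, for which no role is stated here, had a mean of 0.37 ± 0.08 (limma, adjusted p = 0.034) and a value of 0.00 on 16 h replicate 2.

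Among the smaller falls, AT4G15390, an acyltransferase of the BAHD family, gave -0.26 and -0.76 in 8 h days and -0.85 and -0.24 in 16 h days. Its mean was -0.53 ± 0.12 (limma, adjusted p = 0.029). The more negative value of each day length was that of the swapped array.

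AT4G19530, an immune receptor of the TIR-NBS-LRR class, had a mean of -0.54 ± 0.11 (limma, adjusted p = 0.025). The mean rested on 16 h replicate 2, at -1.28, while the other 3 arrays lay between -0.36 and -0.17, and the adjusted p was 0.56 without that array. AT1G67750, a pectate lyase of the cell wall, gave -0.48 and -0.09 in 8 h days and 0.01 and -1.20 in 16 h days, with a mean of -0.44 ± 0.10 (limma, adjusted p = 0.025). Its other probe had a mean of -0.13 and was not called (limma, adjusted p = 0.69). The call was lost with no dye term (adjusted p = 0.66) and with both probes averaged (adjusted p = 0.088). The mean likewise depended on 16 h replicate 2, without which the mean was -0.27 and the adjusted p 0.51.

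**Figure D1:**
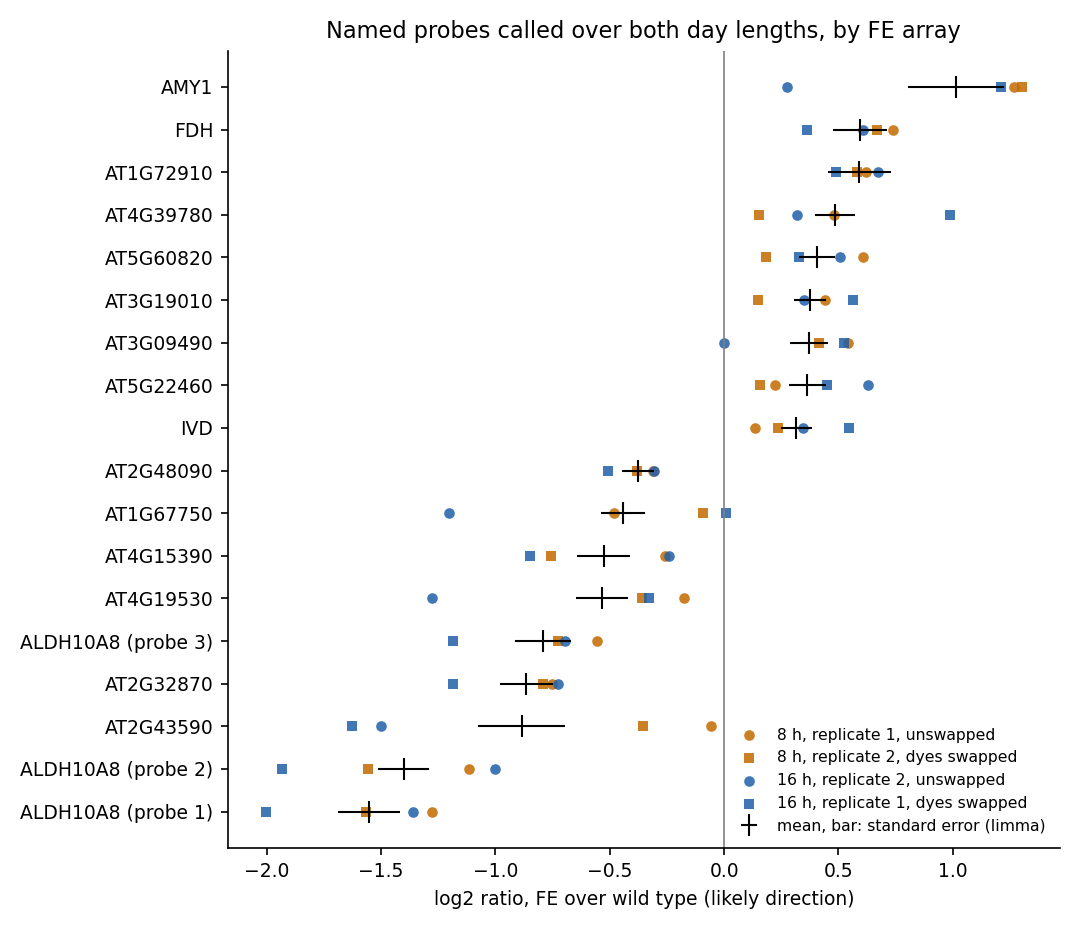
Log2 ratio of FE over wild type (x axis, likely direction) for the 18 named probes called over both day lengths (rows). Each point is 1 array, with 8 h days in orange, 16 h days in blue and swapped dyes as squares, and the black bar is the mean with limma's standard error. The 3 ALDH10A8 probes and AT2G32870 are below -0.5 on all 4 arrays, while the AMY1, AT4G19530 and AT1G67750 means each hold 1 array of 16 h replicate 2 that lies apart.

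The 17 called probes without a gene name were mostly rises. Of these, 15 were higher in FE, at mean log2 ratios of 0.39 to 1.33, and 2 were lower. The median over the 15 higher probes was 1.06 in 8 h days and 0.46 in 16 h days, and for none of them was the difference between day lengths called. The largest rise was on probe SP0000126786, which gave 1.82 and 2.15 in 8 h days and 1.34 and exactly 0 in 16 h days, with a mean of 1.33 ± 0.21 (limma, adjusted p = 0.0012). Probe SP0000128582 followed with 1.46 and 1.38 in 8 h days and 0.67 and 1.21 in 16 h days (mean 1.18 ± 0.22, limma, adjusted p = 0.0077). The 2 falls were on probes SP0000128902, with a mean of -0.86 ± 0.19, and SP0000127091, with a mean of -0.73 ± 0.16 (limma, adjusted p = 0.026 and 0.029). These unnamed probes also moved in other lines of the series. Over the means of the 12 other single lines, SP0000126786 had a median of 0.63 and SP0000128582 of 0.40. SP0000126786 was called higher in FD as well. Both falls were negative in 11 of the 12 other lines and were called lower in FD.

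Of the 24 called rises, the weakest value was on 16 h replicate 2 for 14 probes, on 16 h replicate 1 for 5, on 8 h replicate 2 for 4 and on 8 h replicate 1 for 1. Of the 11 called falls, it was on 16 h replicate 2 for 4, on 8 h replicate 1 for 4 and on 16 h replicate 1 for 3. The probes were picked by their means over these same arrays, and the shares over all probes were not counted. On 4 of the 24 probes at least 1 array had a ratio of exactly 1, which is a log2 of 0. Between 10.5% and 11% of all ratios on an FE array were exactly 1, and the labels do not say what such a ratio stands for.

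FE was next set against the other 12 single lines that were compared with wild type in the series (CO, FCA, FD, FHA, FPA, FT, FVE, FWA, FY, GAI, GI and SOC1), which hold 48 arrays of the same age and, by their titles, the same day lengths. For the FVE arrays titled 16 h the descriptions say short days. The descriptions of the FHA arrays of 16 h days name their wild type as the accession Ler. The labels do not say whether the lines shared wild type RNA. The difference between the FE mean and the mean of the other lines was called for 7 of 13824 probes (0.0506%), all 7 lower in FE, and 594 had an unadjusted p under 0.05. These p-values use the spread between arrays and leave out the spread between lines. A call thus sets FE apart from the average of the other lines, not from each of them. Named probes made up 5 of the 7 and were the 3 probes of ALDH10A8, AT2G32870 and AT2G48090.

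For ALDH10A8 the differences from the other lines were -1.66, -1.47 and -0.84 (limma, adjusted p = 8.3e-10, 1.9e-10 and 0.00080). On the first probe the 12 lines had means from -0.09 in SOC1 to 0.27 in GAI, and the lowest of their 48 arrays was at -0.50, while the highest FE array was at -1.28. On the second and the third probe the lowest of those arrays were at -0.41 and -0.39, against the highest FE arrays at -1.0 and -0.56. The FE arrays and the 48 others did not overlap on any of the 3 probes. These probes were picked by a test on the same arrays, so the gap is no further support. The share of all probes without overlap was not counted.

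AT2G32870 differed from the other lines by -0.76 (limma, adjusted p = 0.0011). Its means in the 12 lines ran from -0.35 in GI to 0.19 in FPA. The lowest of the 48 arrays, of GI in 16 h days, was at -0.67, close to the highest FE array at -0.73. Without 8 h replicate 2 or without 16 h replicate 1 the differences of AT2G32870 and of the third ALDH10A8 probe were not called (adjusted p up to 0.092). AT2G48090 differed by -0.35 (limma, adjusted p = 0.045), and 1 of the 48 arrays, at -0.67 and again of GI in 16 h days, lay within or below the FE values. This call was lost when any 1 FE array was left out (adjusted p up to 0.37).

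**Figure D2:**
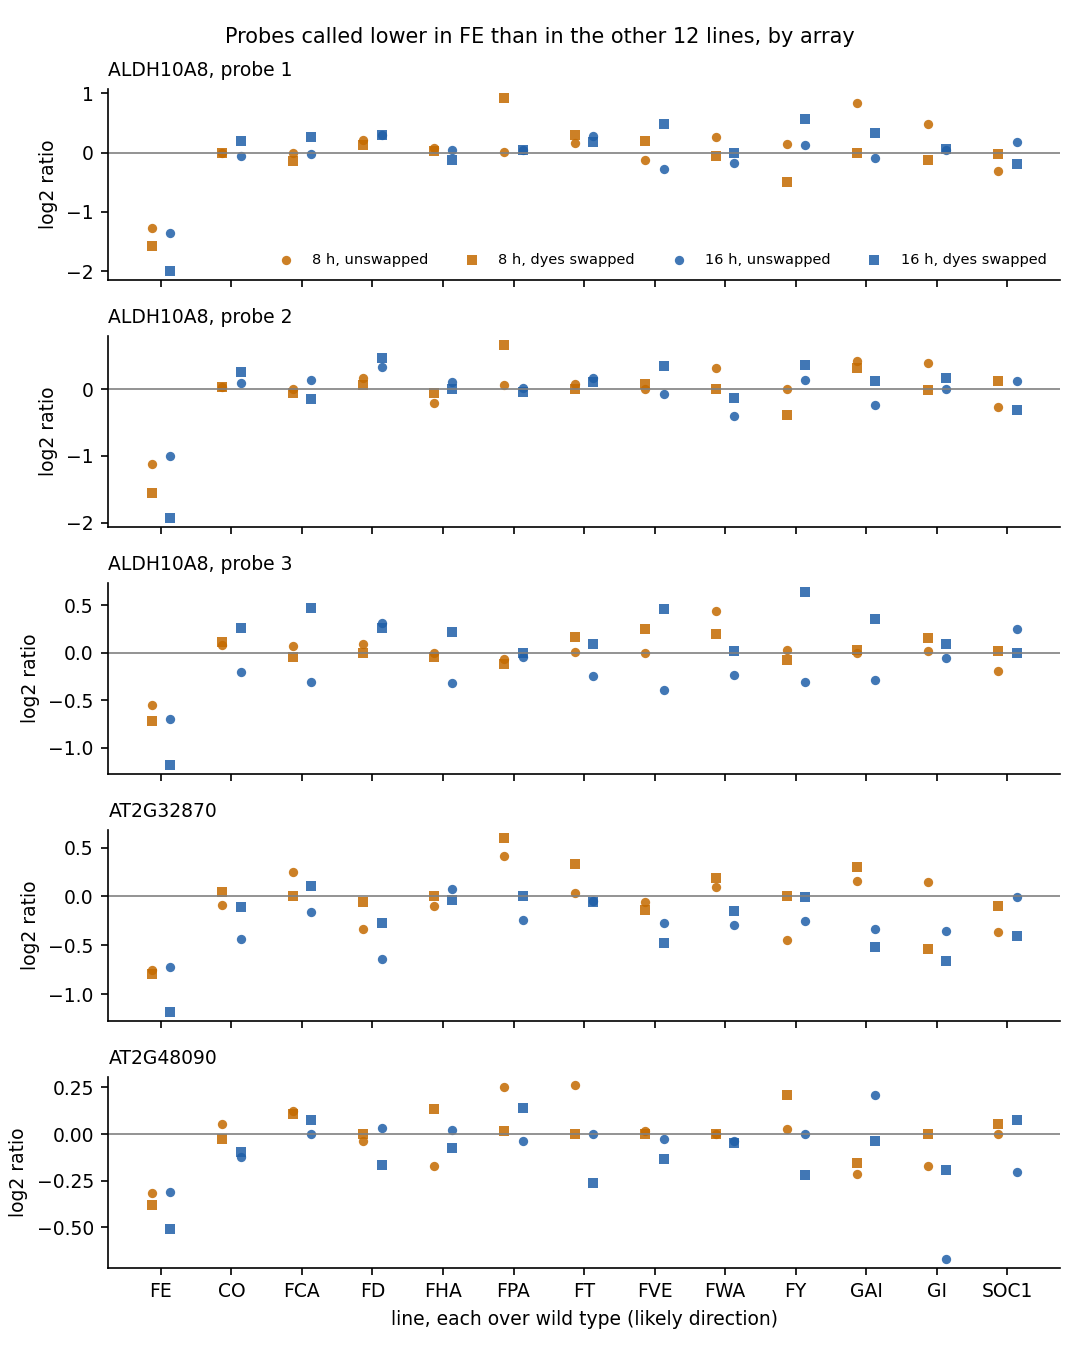
Log2 ratio of each line over wild type (y axis, likely direction) for the 5 named probes called lower in FE than in the other 12 lines (panels), by line (x axis). Each point is 1 array, with 8 h days in orange, 16 h days in blue and swapped dyes as squares, and the y axes differ between panels. The 4 FE arrays lie below all 48 others on the 3 ALDH10A8 probes and on AT2G32870, and 1 array of GI reaches -0.67 on AT2G48090. The probes were picked by a test on these same arrays.

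The rises of FE were not called against the other lines. AMY1 differed from them by 0.97 on its first probe (limma, adjusted p = 0.13), and its means in the 12 lines ran from -0.54 in SOC1 to 0.89 in CO. FDH differed by 0.35 (limma, adjusted p = 0.78), had a mean of 0.66 in FD, and was called higher in FD and in GI against wild type as well. AT1G72910 stood at 0.59 in FE and at 0.75 in FD, where it was also called, and was positive in all 12 other lines. Of the falls, AT4G15390 was negative in all 12 other lines, down to -0.46 in FY, where it was called.

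In 8 h days alone, 17 of 13824 probes were called (0.123%), 14 higher in FE and 3 lower, and 578 had an unadjusted p under 0.05. Named probes made up 4 of them. ALDH10A8 fell on its first probe by 1.42 and on its second by 1.34 on the log2 scale (limma, adjusted p = 8.3e-05 and 8.1e-06), and AT2G32870 fell by 0.77 (limma, adjusted p = 0.033). The third ALDH10A8 probe, at -0.64, was not called in 8 h days (limma, adjusted p = 0.27).

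AT2G44300, a lipid transfer protein, gave 1.09 and 0.96 in 8 h days and 0.45 and -0.46 in 16 h days. Its 8 h mean of 1.02 was called (limma, adjusted p = 0.049). Its other 2 probes had 8 h means of 0.01 and 0.19, neither called, and means over both day lengths of 0.03 and 0.04. The call was lost with no dye term (adjusted p = 0.14), with its probes averaged (adjusted p = 0.46), with the FE arrays alone and without either 8 h array. It was positive on both 8 h arrays and of either sign on the 16 h arrays. Against wild type it was also called in FD and GI.

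Of the 14 probes called higher in 8 h days, 6 held a ratio of exactly 1 on at least 1 of the 4 FE arrays. Probes SP0000122007 and SP0000129082, which were picked out after their values were seen, are called from 1 array: both were at exactly 0 on 8 h replicate 1 and at 2.22 and 2.25 on 8 h replicate 2. Leaving out an 8 h array leaves 1 array in that group, which is then assumed to vary like the other groups: limma called 11 probes without 8 h replicate 1 and 0 without 8 h replicate 2, where 682 had an unadjusted p under 0.05.

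In 16 h days alone, 17 of 13824 probes were again called (0.123%), 6 higher and 11 lower, and 1212 had an unadjusted p under 0.05. The balance of directions moved with the processing: with scaled arrays and with no dye term 1 of 10 called probes was higher, and with the FE arrays alone 0 of 10. Of these, 15 were named probes of 11 genes. Only 3 probes were called in both day lengths taken singly, which is 17.7% of either set. They were the first and second ALDH10A8 probes and AT2G32870.

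In 16 h days the 3 probes of ALDH10A8 had means of -1.68, -1.47 and -0.94 (limma, adjusted p = 1.7e-06, 8.2e-07 and 0.011), and AT2G32870 fell by 0.96 (limma, adjusted p = 0.0046). Falls of like size were seen on AT2G43590, a chitinase, an enzyme class that cuts the chitin of fungal cell walls and is often induced in defence. Its first probe gave -0.06 and -0.35 in 8 h days and -1.63 and -1.50 in 16 h days, and the 16 h mean was -1.56 ± 0.27 (limma, adjusted p = 0.0046). The second gave 0.40 and -0.41 in 8 h days and -1.45 and -1.33 in 16 h days, with a 16 h mean of -1.39 (limma, adjusted p = 0.013). The third gave 0.28 and -0.19 in 8 h days and -1.44 and -1.20 in 16 h days, with a 16 h mean of -1.32 (limma, adjusted p = 0.030).

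On all 3 probes the 16 h arrays were low and close together, while the 8 h arrays lay around 0. A further probe of AT2G43590 did not follow them, with a 16 h mean of 0.12. Each of the 16 h calls was lost when 1 of the 16 h arrays was left out, which leaves a single array in that group (adjusted p up to 0.30). Over both day lengths the first of the 3 was called, with a mean of -0.88 (limma, adjusted p = 0.025), and not with any 1 array left out. The other lines had means from -0.85 in CO to 0.58 in GI on this probe, and it was called lower in FD.

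The rises in 16 h days were smaller. AT5G39670, a calcium-binding EF-hand protein, gave 0.07 on both 8 h arrays and 0.54 and 0.71 in 16 h days, with a 16 h mean of 0.63 (limma, adjusted p = 0.044). AT4G39780 rose by 0.65 on the same single probe as above, AT5G22460 by 0.54, AT3G19010 by 0.46 and IVD by 0.45 on their called probes (limma, adjusted p = 0.012, 0.035, 0.047 and 0.046). The AT3G19010 call was lost under most other settings, the replicate block included (adjusted p = 0.055), and that of AT5G22460 with no dye term (adjusted p = 0.11), with scaled arrays and with the FE arrays alone. The remaining called probes with names that are not described above were chosen after their values were seen. They were AT3G50520 of the phosphoglycerate mutase family, at 0.40, and AT2G34060, a peroxidase, at -0.47 (limma, adjusted p = 0.029 and 0.036). No call on AT5G39670 or IVD in 16 h days survived the loss of any 1 FE array.

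The test of the difference itself, 16 h minus 8 h, called 0 of 13824 probes (0%) by limma. The smallest adjusted p was 0.57, and 453 probes had an unadjusted p under 0.05. A gene called in one day length and not in the other is therefore not shown to differ between them. For AT2G43590 the differences were -1.36, -1.39 and -1.37 on the 3 probes (limma, adjusted p = 0.78 for each). The largest named contrast of the defence list was on PDF1.2, a small antifungal protein that jasmonate and ethylene induce.

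PDF1.2 gave 1.27 and 0.47 in 8 h days and -1.34 and -1.68 in 16 h days on one probe, and 0.68 and 0.15 in 8 h days and -1.30 and -1.73 in 16 h days on the other. Both probes were positive on the 8 h arrays and negative on the 16 h arrays. PDF1.2 was picked for the size of this contrast, and the share of all probes with such a split was not counted. The differences were -2.38 ± 0.57 and -1.93 ± 0.52, and neither was called (limma, adjusted p = 0.67 and 0.78). The 16 h means of -1.51 on either probe were not called either (limma, adjusted p = 0.17 and 0.093). Across the 12 other lines the first of these PDF1.2 probes had means from -1.52 in FCA to 1.17 in FY, and both of those were called.

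**Figure D3:**
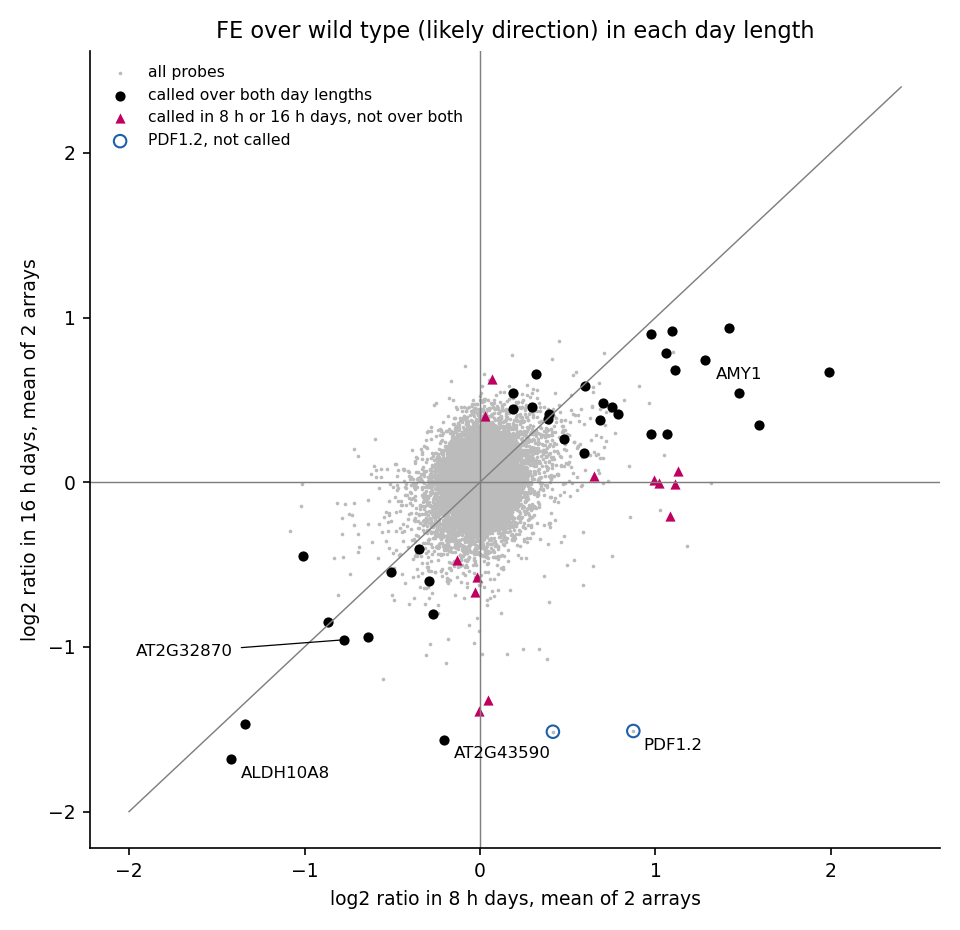
Mean log2 ratio of FE over wild type in 8 h days (x axis) against 16 h days (y axis), 2 arrays each, for all 13824 probes in grey, with the diagonal of equal values. Probes called over both day lengths are black, probes called in one day length and not over both are magenta triangles, and the PDF1.2 probes are open circles. The ALDH10A8 probes and AT2G32870 lie near the diagonal, AT2G43590 and PDF1.2 are low in 16 h days and near or above 0 in 8 h days, and most called rises lie below the diagonal.

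The genes were also read by pathway. For each of 15 lists the number of measured genes, the calls and the median are given against all probes, whose median log2 ratio was 0.00 with 49.6% of probes negative and 0.253% called. Few members of most lists were measured, and the lists on the circadian clock, iron homeostasis, seed storage and floral organs had no named probe at all.

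The aldehyde dehydrogenase list had 8 probes for 5 of its 16 genes, and the 3 called lower were all ALDH10A8. ALDH3F1, ALDH22A1, ALDH11A3 and ALDH6B2, which oxidise other aldehydes, had means between -0.18 and 0.02 and were not called. ALDH10A9, the closest relative of ALDH10A8, has no named probe here. SAMDC, an enzyme of polyamine synthesis and the only measured gene of the polyamine list, had means of -0.16 to 0.17 on its 5 probes, none called.

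The starch list had 4 probes for 3 of 34 genes, with a median of 0.35, and 1 was called higher, the AMY1 probe described above. PWD, a kinase that phosphorylates starch, stood at -0.22 and SBE2.2, a starch branching enzyme, at 0.21, neither called. AMY2 and AMY3 have no named probe here. On the list of formate, one-carbon metabolism and photorespiration FDH was the one call among 7 probes of 5 genes. The means of this list ran from -0.21, on AT1G11860, to 0.59, on FDH. HPR, a photorespiratory reductase, and THFS, which activates formate for one-carbon transfer, had means of -0.06 to 0.04 on their probes.

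The list of genes induced by darkness and sugar starvation had 13 probes for 6 of 23 genes and a median of -0.08. One IVD probe was the only call, and it was higher. AT4G27450, a marker of this response, went the other way, with means of -0.52 to -0.31 on its 4 probes, none called (limma, adjusted p from 0.35). This gene was negative in all 12 other lines too, and it was called lower in FD and GI. The subunits MCCA and MCCB of the next enzyme of leucine breakdown had means of 0.00 to 0.16 and were not called.

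The defence list had 9 probes for 4 of 25 genes. The median was -0.32 over both day lengths, 0.05 in 8 h days and -1.32 in 16 h days. Most of these probes were of AT2G43590 and PDF1.2. In 16 h days the TIR genes of this list were at 0.58 (AT1G72910) and at 0.28 and -0.04 (AT1G72900), none called. Over both day lengths 1 probe of the list was called higher (AT1G72910) and 1 lower (AT2G43590). In 16 h days 3 of its probes were lower, all of AT2G43590. The TIR-NBS-LRR gene AT4G19530, which is not on this list, was also called lower in 16 h days. Its 16 h mean was -0.80 (limma, adjusted p = 0.024), from arrays at -0.33 and -1.28, and the call was lost with the FE arrays alone. The cold, drought and abscisic acid list had no call among 6 probes of COR47, STZ and KIN2, whose means lay between -0.10 and 0.09.

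Photosynthesis was the list with the most probes, 20 for 9 of 42 genes. None was called, 15 of the 20 were negative, and the median was -0.07. The lowest 2 were probes of PRK, the Calvin cycle kinase, at -0.30 and -0.22 (its other probe was at -0.14), and the most positive was LHCB4.1, a light-harvesting protein, at 0.14. EXPA7, an expansin of root hairs and the only measured root marker, stood at 0.22 and was not called. The tissue could not be checked further, since its other defining markers have no named probe here, and fewer cells of a type and less RNA per cell cannot be told apart in such bulk RNA.

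**Figure D4:**
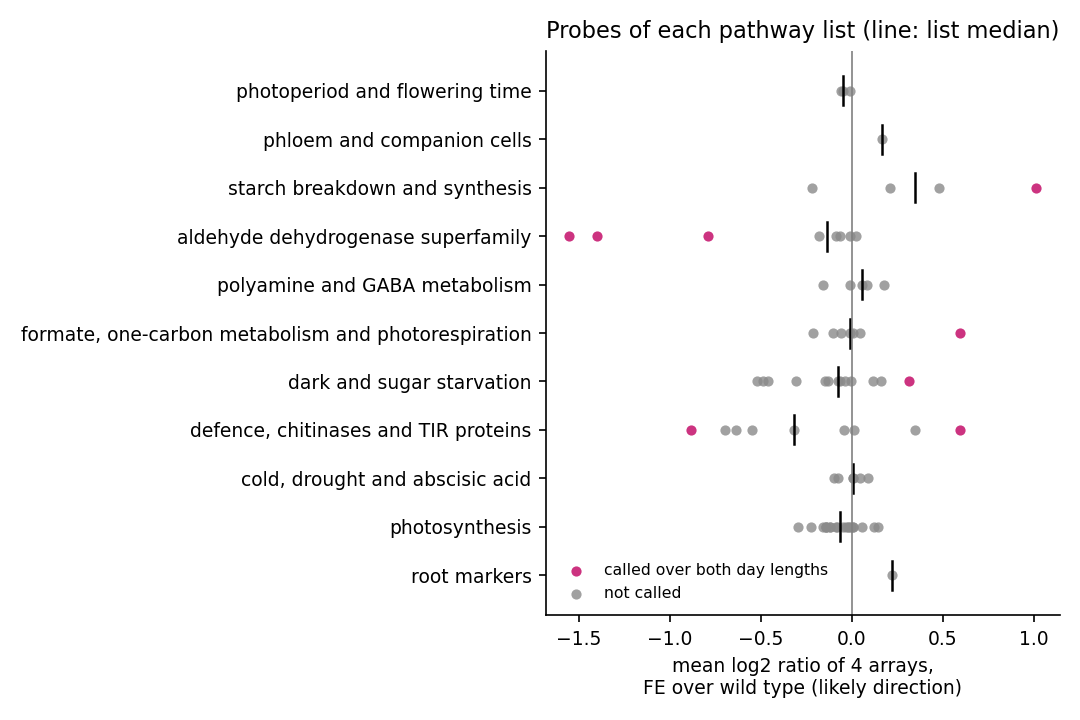
Mean log2 ratio of FE over wild type over the 4 arrays (x axis, likely direction) for every measured probe of the 11 pathway and marker lists that have one (rows). Magenta points are called over both day lengths, grey points are not, and the black line is the list median. The called points belong to ALDH10A8, AMY1, FDH, IVD, AT2G43590 and AT1G72910. Among points not called, the lowest of PDF1.2 and of AT4G27450 lie at -0.55 and -0.52. The photosynthesis probes stay between -0.30 and 0.14.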

How the data were processed

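The authors deposited 1 linear ratio of the channels per probe and array. Per the labels' descriptions they were spatially normalized (Wilson and others), and the titles name GenePix result files. For background correction and spot filters the method was not given in the sources used here. No scanner intensities were used, so signal over background is unknown and the number of arrays limits the precision. On the FE arrays 1 ratio was missing.

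Deposited ratios were log2 transformed with no further normalization. Swapped and unswapped arrays were treated as running the same way, and ALDH10A8 had the same sign on all 4 FE arrays. A single limma 3.58.1 model (R 4.3.3) held a mean for each of the 32 groups and a term for dye orientation, and the GI arrays of 16 h days, which share a biological replicate number, were averaged, leaving 63 columns. Empirical Bayes moderation had 5.17 prior and 30 residual degrees of freedom. Tests were two-sided, with Benjamini-Hochberg adjustment over 13824 probes in each comparison, and the script was tested on simulated data. FLC20 and the double mutants were left out of the other 12 lines, since their comparator, age or genotype differs.

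A gene name was found in the platform annotation for 6341 probes, and 7483 had none. The TAIR10.1 gene table matched 6336 of the named probes. No coordinates were used.

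The text names every called named probe over both day lengths and against the other lines, at most 2 unnamed probes in each direction, the 5 largest called named probes in each direction in each day length, and up to 4 members of each list. Day length values of genes named by another part of the rule are given too. The members, lists and rules were chosen with earlier results of these data known. Alternatives were no dye term, scaled, quantile normalized or weighted arrays, ratios of exactly 1 as missing, averaging per gene, robust moderation, the FE arrays alone, a replicate block and each array left out.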

Additional observations from a re-analysis of the deposited data

Results flagged for a closer look

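Of 91 named probes tested over the 4 FE arrays, 8 had 1 array whose gap to the nearest other, divided by the whole range, passed Dixon's critical value for 4 values. Chance flags about 1 in 20 such groups, and the 4 arrays mix both day lengths. On 16 h replicate 2, AMY1 was at 0.27 while its other 3 arrays lay between 1.21 and 1.3, AT4G19530 was at -1.28 (others -0.36 to -0.17), the second IVD probe at -0.40 (others -0.08 to -0.02) and a THFS probe at -0.36 (others 0.16 to 0.21). On 16 h replicate 1, AT2G32870 was at -1.19 (others -0.79 to -0.73) and a COR47 probe at -0.27 (others -0.04 to 0.00). On 8 h replicate 2 an MCCA probe was at -0.0115, and on 8 h replicate 1 an STZ probe was at 0.0171 with the other 3 arrays at exactly 0, both of which are differences of negligible size.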

How the results depend on the processing

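Over both day lengths 35 probes were called, and the first and second ALDH10A8 probes and AT2G32870 were the 3 of 18 named probes called under all 13 alternatives. The count was 88 with scaled arrays, 94 with quantile normalized arrays, 85 with array weights and 20 with the FE arrays alone, where 16 of the 35 were shared, and between 8 and 26 with 1 array left out. Without 16 h replicate 1 it was 20, with 20% of calls higher, against 24 of 35 before. In 8 h days the count of 17 was 35, 33 and 28 with scaled, quantile normalized and weighted arrays, 9 with the FE arrays alone and between 0 and 19 with 1 array left out. In 16 h days the count of 17 was 10 with no dye term, 10 with scaled arrays, 8 with probes averaged per gene, 10 with the FE arrays alone and between 10 and 28 with 1 array left out. The count of 0 for 16 h minus 8 h was 2 with quantile normalized arrays, 2 with exact ratios of 1 as missing, and between 0 and 12 with 1 array left out, highest without 16 h replicate 1. Against the other 12 lines the count of 7 was 4 with no dye term, 3 with probes averaged per gene and between 2 and 17 with 1 array left out. The cause of these shifts was not tested, except that averaging leaves fewer features and a left-out array leaves fewer samples. AT4G39780 in 16 h days turned from 0.65 to -0.011 once its 7 probes were averaged. With ratios of exactly 1 as missing, 353 probes had no estimate over both day lengths. No scaling moved the median of all probes by more than 0.01.

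The replicate block gave 44 calls over both day lengths, 22 in 8 h days, 17 in 16 h days, 0 for the difference and 7 against the other lines. Residuals of the replicate 1 arrays of FE in 8 h and 16 h days correlated at 0.24, and these arrays share only a number in the labels. In a group of 2 arrays the residuals mirror each other, so replicate 2 gives no further value. Crossed numbers gave -0.24 for the same reason.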
